A study of Mus musculus with 41 samples.

Results

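The 10 genes described here mark macrophages or the state in which macrophages are found: Emr1, Cd68, Csf1r, Csf1, Mrc1, Cd163, Msr1, Arg1, Nos2 and Retnla. They were chosen by name, each was on the array, and all 10 were among the 20913 genes that passed a filter on dim spots. RNA was measured in 41 mammary tumors on 2-color Agilent arrays, 1 tumor per array. Every tumor grew from mammary duct fragments of Trp53-null BALB/c donors that had been placed in the cleared fat pads of wild-type BALB/c females, so the tumor epithelium lacked Trp53 while the macrophages could come from the wild-type host. Fragments of 4 donor mice were spread over the diet groups, and tumors were taken at a fixed size.

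Mice were fed 1 of 4 regimens that began just after transplantation, before puberty. LFD and HFD mice stayed on a low fat or a high fat diet, HFD-LFD mice had the high fat diet during puberty and the low fat diet as adults, and LFD-HFD mice the reverse. The 29 epithelial tumors (labelled with variable p53 morphology) came from mice on LFD (8), HFD (8), HFD-LFD (7) and LFD-HFD (6), and each regimen also gave 3 of the 12 spindle cell tumors. Early and late occurrence, which the study divided at a year of latency, split the epithelial tumors into 14 and 15 and the spindle cell tumors into 3 and 9. Labels gave 38 different mouse numbers, 3 of them on a pair of tumors, and nothing says whether such a pair shared a mouse.

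Macrophages are phagocytes that depend on signals through CSF1R, the receptor of the growth factor CSF1, and in mammary tissue they take part in duct growth as well as in tumors. Cells driven by interferon and microbial products make nitric oxide from arginine with the enzyme NOS2, a state called classical or M1. Cells driven by interleukin 4 use arginase 1 instead, secrete RELMα (Retnla) and carry scavenger and mannose receptors, a state called alternative or M2. The study stained tumor sections for F4/80, the product of Emr1, and for arginase 1. The question put to the arrays here is how the RNA of these genes varied with histology, diet and time of occurrence.

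Each gene was read from 1 probe of 60 bases, the brightest where several were present. The 3 probes below carry the F4/80 gene, the arginase gene and the one gene of the 10 that differed between histologies. They are printed 5′ to 3′ as the array files list them, in lower case throughout because the whole probe hybridises.
Emr1: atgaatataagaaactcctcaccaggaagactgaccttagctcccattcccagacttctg
Arg1: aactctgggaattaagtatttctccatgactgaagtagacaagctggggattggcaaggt
Cd163: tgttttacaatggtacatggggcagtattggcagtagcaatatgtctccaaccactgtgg
On mouse build mm9, the build of the array files, the Emr1 probe lies at chr17:57620350-57620409 on the plus strand, the Arg1 probe at chr10:24636194-24636253 on the minus strand and the Cd163 probe at chr6:124270436-124270495 on the plus strand. Each can be read in at least 1 frame without a stop codon. The Arg1 and Cd163 designs were the only probes for their genes, while Emr1 had a second probe that followed the first with r = 0.84 over the epithelial tumors.

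Values are log2 ratios of tumor over Universal Mouse Reference RNA, a pool from 11 mouse cell lines, so that 0 is the level of the reference and 1 is a doubling. Per the sample labels the tumor was in Cy5 and the reference in Cy3, whereas the study's methods place the reference in Cy5, so signs here oppose those that the methods would give. In 38 of the 41 arrays the median of 5 probes for the Y-linked genes Ddx3y, Eif2s3y, Kdm5d and Uty was brighter in Cy3. Recipients and donors were female, so this is the direction of the labels, with the tumor in Cy5, rather than of the study's methods. Between 52.4% and 94.9% of probes were well above background in the tumor channel of an epithelial array and between 59.1% and 72.7% in that of a spindle cell array. Outlier spots made up 0.472% to 22% of an array, with a median of 0.665%, and were left missing. Trp53 itself read -2.25 to 3.74, and since the sources do not place its probe against the disrupted part of the gene, it checks no label. All 6 epithelial markers (Epcam, Cdh1, keratins) and all 23 measured genes of a wider macrophage and myeloid list were well above background in most tumors of both histologies.

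**Figure D1:**
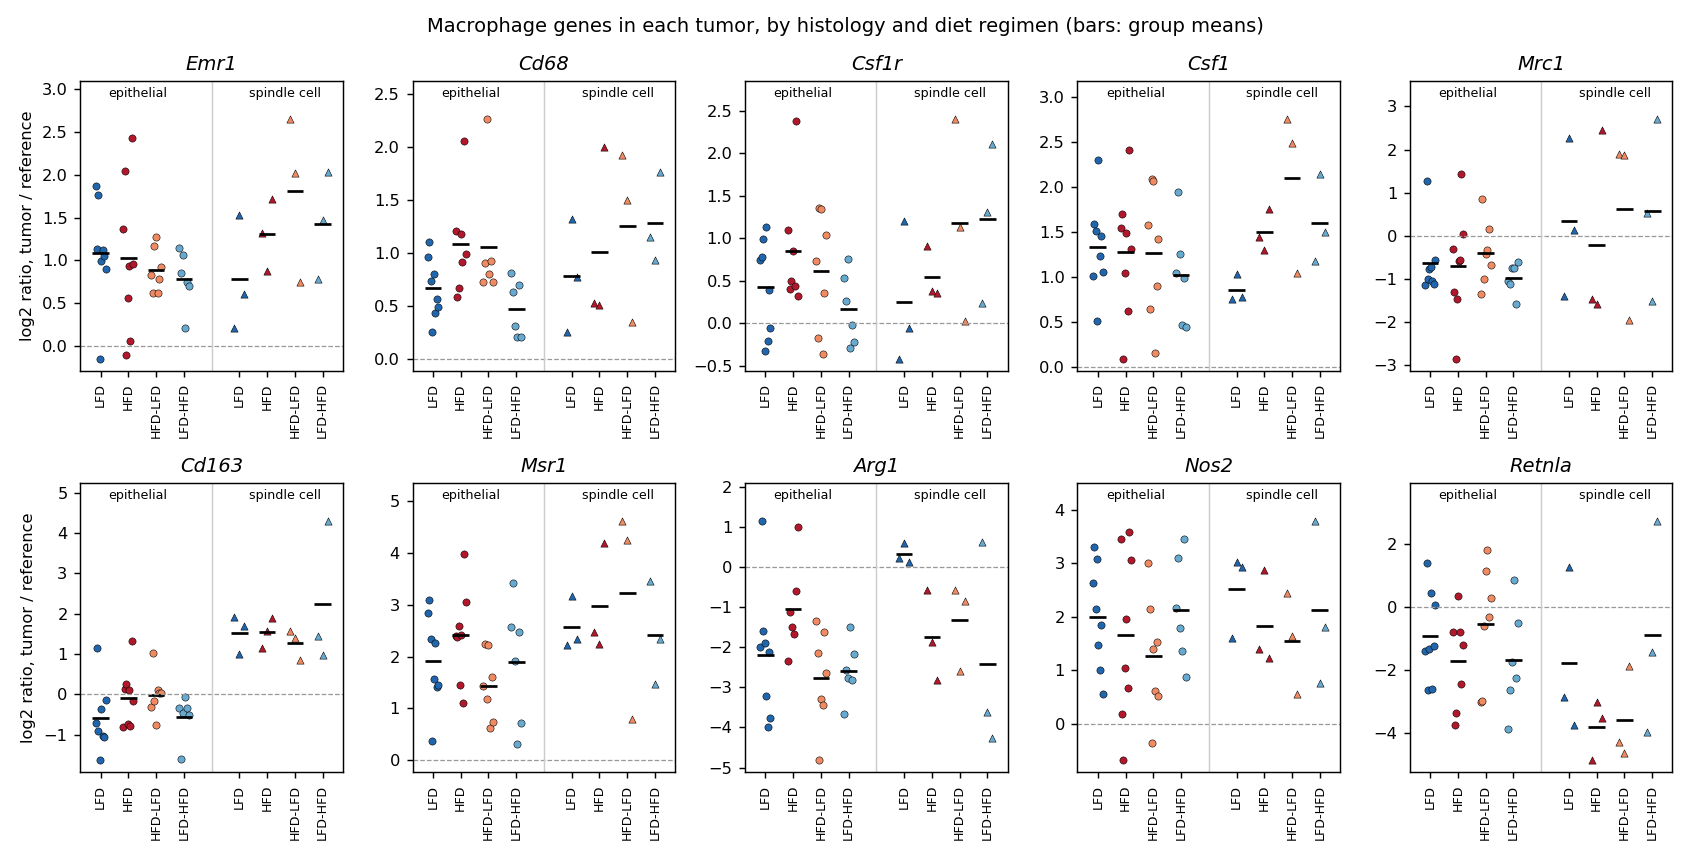
Log2 ratio of tumor over reference (y axis) for each of the 10 genes in each tumor, by regimen (x axis), with circles for the 29 epithelial and triangles for the 12 spindle cell tumors and bars at the group means. Regimen groups of epithelial tumors overlapped for each of the 10 genes, which was not counted for other genes, and Cd163 lay above 0 in all 12 spindle cell tumors.

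Among the lineage genes of the epithelial tumors, Emr1, which encodes the adhesion receptor F4/80, ran from -0.15 through a median of 0.93 to 2.42 over 29 tumors and exceeded the reference in 27. Cd68, a lysosomal glycoprotein of macrophages, ran from 0.20 through 0.73 to 2.26 over 27 tumors and exceeded the reference in all of them. Csf1r ran from -0.37 through 0.47 to 2.37 over 28 tumors. These 3 genes were thus above the pool of cell lines in most tumors, and their spread between tumors was close to that of a typical gene. The SD over epithelial tumors was 0.58 for Emr1, 0.48 for Cd68 and 0.63 for Csf1r, against a median of 0.56 over all 20913 genes. Csf1, the ligand of CSF1R, which tumor and stromal cells as well as macrophages can make, ran from 0.10 through 1.25 to 2.41. In bulk tumors fewer cells of a type and less RNA per cell cannot be told apart.

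Retnla, Arg1 and Nos2 varied more. Retnla had an SD of 1.62 over the epithelial tumors, above that of 98.1% of all genes, and ran from -3.89 through -1.22 to 1.80. Arg1 had an SD of 1.35, above 95.6% of genes, and ran from -4.82 through -2.14 to 1.15. Arg1 was below the reference in 25 of 27 epithelial tumors and Retnla in 20 of 28. Nos2 ran the other way in level, from -0.69 through 1.78 to 3.58, and exceeded the reference in 27 of 29 tumors, with an SD of 1.20, above 93.1% of genes. Among the receptors, Msr1, which takes up modified lipoproteins, ran from 0.32 through 2.22 to 3.99. Mrc1, the mannose receptor, ran from -2.84 through -0.74 to 1.43, and Cd163, the haemoglobin scavenger receptor, from -1.63 through -0.33 to 1.32. The SD of these receptors, 0.93 for Msr1, 0.85 for Mrc1 and 0.70 for Cd163, lay between those of the lineage genes and of Nos2. These ratios compare a gene with the same gene in the reference, so they do not rank the genes by abundance.

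Diet was compared first. None of the 10 genes differed between the 4 regimens in epithelial tumors by limma's moderated F test, whose adjusted p ran from 0.371 for Cd68 to 0.920. By that test 0.473% of all genes were called at an adjusted p under 0.10, and at an unadjusted p under 0.05 1 of the 10 genes, Cd68, and 12.9% of all genes passed. For each of the 10 genes the ranges of all 6 pairs of regimens overlapped. The share of all genes with such overlap was not counted, so it sets these genes apart from no others. The regimen order differed from gene to gene: the LFD mean was the highest for Emr1 and Csf1, the HFD mean for Cd68, Csf1r, Msr1 and Arg1, the HFD-LFD mean for Mrc1, Cd163 and Retnla, and the LFD-HFD mean for Nos2. No neighbours in any of these orders were separated by more than their spread.

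Emr1 averaged 1.09 ± 0.62 (SD, n = 8) in LFD, 1.03 ± 0.89 (n = 8) in HFD, 0.89 ± 0.25 (n = 7) in HFD-LFD and 0.79 ± 0.33 (n = 6) in LFD-HFD tumors. The LFD values ran from -0.15 through 1.09 to 1.87 and the HFD values from -0.11 through 0.94 to 2.42, so the continuous groups held both the lowest and the highest tumors. Set against LFD, the 3 regimens with HFD together differed by -0.19 in Emr1, with a 95% interval of -0.69 to 0.32 and a limma adjusted p of 0.876. On the linear scale this interval spans 0.62 to 1.25 of the LFD level. The second Emr1 probe gave -0.29 (SE 0.30).

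Arg1 averaged -1.04 ± 1.15 (SD, n = 6) in HFD, -2.18 ± 1.62 (n = 8) in LFD, -2.58 ± 0.72 (n = 6) in LFD-HFD and -2.76 ± 1.21 (n = 7) in HFD-LFD tumors. A pair of HFD tumors, 42L4B and 60L, had no Arg1 value because the spot was an outlier. The HFD values ran from -2.34 through -1.30 to 0.99 and the LFD values from -3.99 through -2.06 to 1.15. The highest Arg1 ratio of any epithelial tumor was thus in an LFD tumor, 17R. HFD exceeded LFD by 1.15 in Arg1, with an interval of -0.18 to 2.47 and a limma adjusted p of 0.588, and over the 3 regimens with HFD the difference was 0.06, with an interval of -0.97 to 1.09 and an adjusted p of 0.99.

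No gene of the 10 was called for the regimens with HFD against LFD, where 0.196% of all genes were called, nor for HFD alone, where 0% were called. None was called for LFD-HFD, where 0% were called, or for HFD-LFD, where 1.4% were called. At an unadjusted p under 0.05 limma passed 0 of the 10 genes in each of these 4 comparisons. Of all genes 9.96%, 9.44%, 6.54% and 13.5% passed, in the order named, so 0 of 10 is little evidence either way. The widest difference from LFD after Arg1 in HFD was that of Retnla, at -0.81 (SE 0.80) in HFD and -0.78 (SE 0.83) in LFD-HFD. Cd163 differed by 0.58 (SE 0.35) and Cd68 by 0.39 (SE 0.23) in HFD-LFD. All LFD epithelial tumors lay on 2 of the 8 epithelial slides, and 7 of the 8 slides held 1 regimen, so slide and regimen cannot be told apart within slides.

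The pubertal contrast sets the 21 tumors of HFD and HFD-LFD mice against the 20 of LFD and LFD-HFD mice, both histologies included. Again none of the 10 genes was called by limma, as against 0.00956% of all genes. At an unadjusted p under 0.05 1 of the 10 genes, Cd68, and 6.95% of all genes passed. Cd68 ran from 0.35 through 0.92 to 2.26 with pubertal HFD and from 0.20 through 0.71 to 1.76 without it. The difference was 0.38, with an interval of 0.05 to 0.70 and an adjusted p of 0.654. Nos2 had the widest difference on the lower side beside Retnla, at -0.60 with an interval of -1.28 to 0.08. Of the 10 differences 8 were above 0 and their median was 0.17, against -0.02 over all genes tested.

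**Figure D2:**
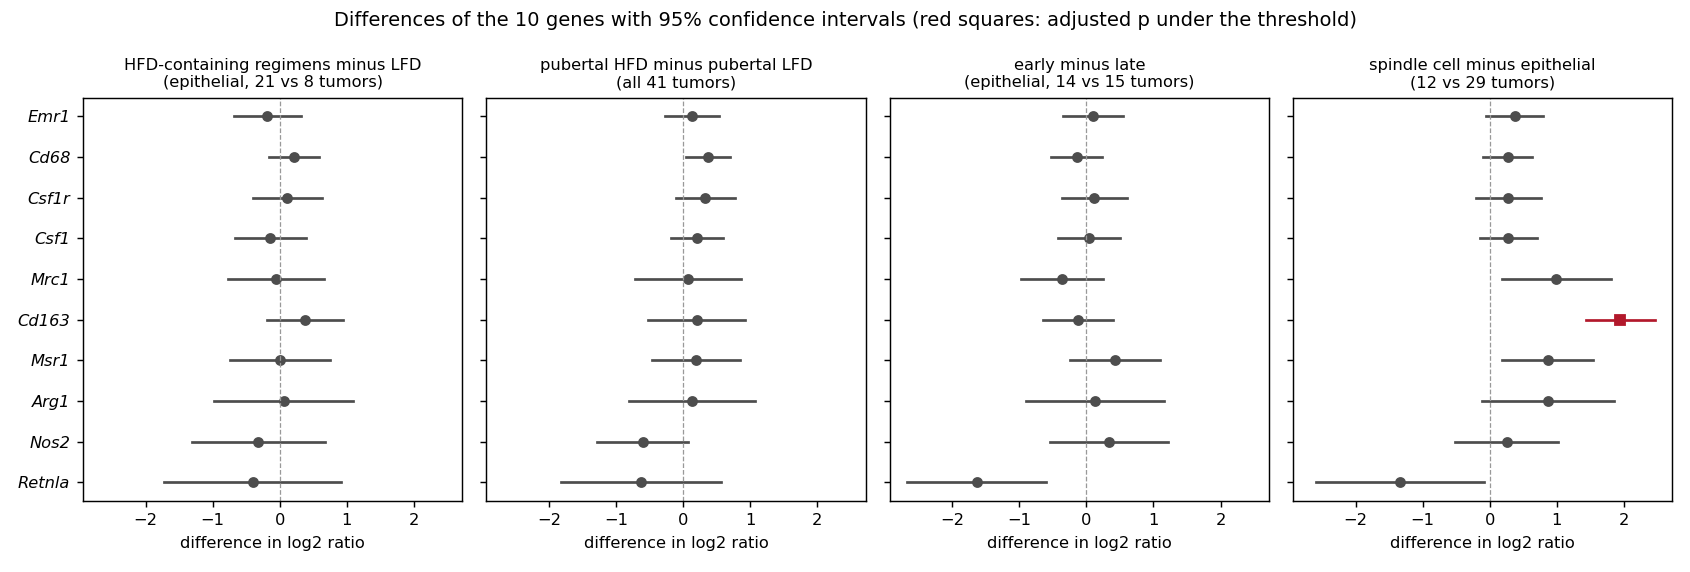
Difference in log2 ratio (x axis) of each of the 10 genes (y axis) in 4 comparisons, with points at the estimate and bars for the 95% confidence interval, red squares marking an adjusted p under the threshold. Cd163 in spindle cell against epithelial tumors, at 1.95, was the 1 such value.

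The wider lists were described in the same contrast of the regimens with HFD against LFD. Of 23 other macrophage and myeloid genes 0 were called, 16 were nominally above 0, and the median difference was 0.16, against -0.03 over all genes. Of 11 other genes of classical activation and 15 of alternative activation 0 were called, with medians of -0.06 and 0.02. Of 11 genes of the CSF1 and monocyte recruitment axis and 7 of arginine metabolism 0 were called, with medians of -0.11 and -0.12. One gene of the other cell type lists passed, Camp, a neutrophil granule peptide, which was higher by 1.49 (SE 0.26) with a limma adjusted p of 0.0572. Camp was 1 of 7 neutrophil genes measured. In this contrast 0 of all genes, Camp included, were called with slide as a random block. The same held without the filter on dim probes and with 1 tumor per shared number. Single regimens differed from this pooled contrast. Of the 23 macrophage and myeloid genes 19 were nominally above LFD in HFD (median 0.37), 18 in HFD-LFD (0.19) and 6 in LFD-HFD (-0.105). In HFD-LFD 1 of the 11 recruitment genes and 1 of the 7 neutrophil genes were called higher, where 1.4% of all genes were called. All 11 genes of classical activation were nominally lower there, with a median of -0.41 and 0 called.

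Time of occurrence was compared next, in 14 early and 15 late epithelial tumors. None of the 10 genes was called by limma, where 0.22% of all genes were called. At an unadjusted p under 0.05, 1 of the 10 genes passed, Retnla, as did 13.2% of all genes. The ranges of early and late tumors overlapped for each of the 10 genes, a count not made for other genes.

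Retnla was the widest of these differences. It ran from -3.89 through -2.64 to 1.403 in 13 early tumors and from -2.60 through -0.32 to 1.80 in 15 late ones. Of the early tumors 17R, from an LFD mouse, was the single one above the reference, while 7 of the late tumors were. The early mean was lower by 1.64 (SE 0.51), with an interval of -2.68 to -0.60 and an adjusted p of 0.182, so the difference did not pass the threshold across all genes. It ran between -1.85 and -1.27 under 14 other settings, with adjusted p from 0.143 to 0.593.

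Retnla could also be compared on 3 slides where early and late tumors lay together, 12 tumors in all. The early minus late difference was -1.78 on slide 1, -2.02 on slide 2 and -1.09 on slide 8. Slide 2 held 1 early and 3 late tumors, and slides 1 and 8 each held 2 early and 2 late. On slide 1 both early tumors were from LFD-HFD and both late ones from HFD mice, so onset and regimen cannot be told apart there. Slide 8 held 40R4A, 57R and 65R, whose columns in the authors' matrix best matched one another's arrays. With the labels as the matrix has them the difference over all epithelial tumors was -1.27 with an adjusted p of 0.385.

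By regimen, early tumors averaged for Retnla -0.995 against -0.83 for late tumors in LFD, -2.65 against -1.02 in HFD, -2.21 against 0.73 in HFD-LFD and -2.76 against -0.63 in LFD-HFD. The gap was thus small in LFD mice and wider in the other regimens. The early LFD mean included 17R at 1.403, the single early tumor above the reference. The onset effect was not found to differ between regimens by limma's interaction test, with an adjusted p of 0.787. In LFD and in HFD-LFD mice all early tumors were on 1 slide and all late tumors on another, so slide and onset cannot be told apart within these regimens.

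Arg1 depended on how slides were treated. Over all epithelial tumors, early ones averaged -2.09 ± 1.44 (SD, n = 12) and late ones -2.22 ± 1.32 (n = 15), a difference of 0.13 with an interval of -0.91 to 1.16. On the same 3 slides the early minus late difference in Arg1 was -2.17, -0.415 and -1.38, and with slide as a fixed block it was -1.41 (SE 0.65) with a limma adjusted p of 0.572. Within regimens the Arg1 order turned. Early LFD tumors averaged -1.09 against -3.27 for late ones, whereas early HFD tumors averaged -1.72 (n = 2) against -0.69. The early LFD mean included 17R at 1.15, where the next LFD value was -1.61, and slide and onset cannot be told apart in LFD. The 2 early HFD tumors, 40R4A and 65R, were among those whose matrix columns best matched one another's arrays. The interaction of onset and regimen in Arg1 had an unadjusted p under 0.05 and a limma adjusted p of 0.672. By the same test 7.22% of all genes had an unadjusted p under 0.05 and 0.00478% were called.

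Emr1 averaged 0.10 (SE 0.22) higher and Cd68 0.14 (SE 0.19) lower in early tumors, neither beyond its error. Msr1 differed by 0.43 with an interval of -0.24 to 1.101, Mrc1 by -0.37 with an interval of -0.98 to 0.25 and Nos2 by 0.34 with an interval of -0.54 to 1.21. In the wider lists 0 genes were called in any macrophage list. All 11 other genes of classical activation were nominally higher in early tumors, with a median difference of 0.48 against 0.01 over all genes, and 4 of them had an unadjusted p under 0.05. The 15 genes of alternative activation were split, 7 higher and 8 lower, with a median of -0.02. Adipocyte markers, the mean of 5 genes, ran from -5.67 through -2.83 to -0.21 in early and from -4.79 through -3.16 to -0.95 in late tumors, and their part in the Retnla values was not tested.

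**Figure D3:**
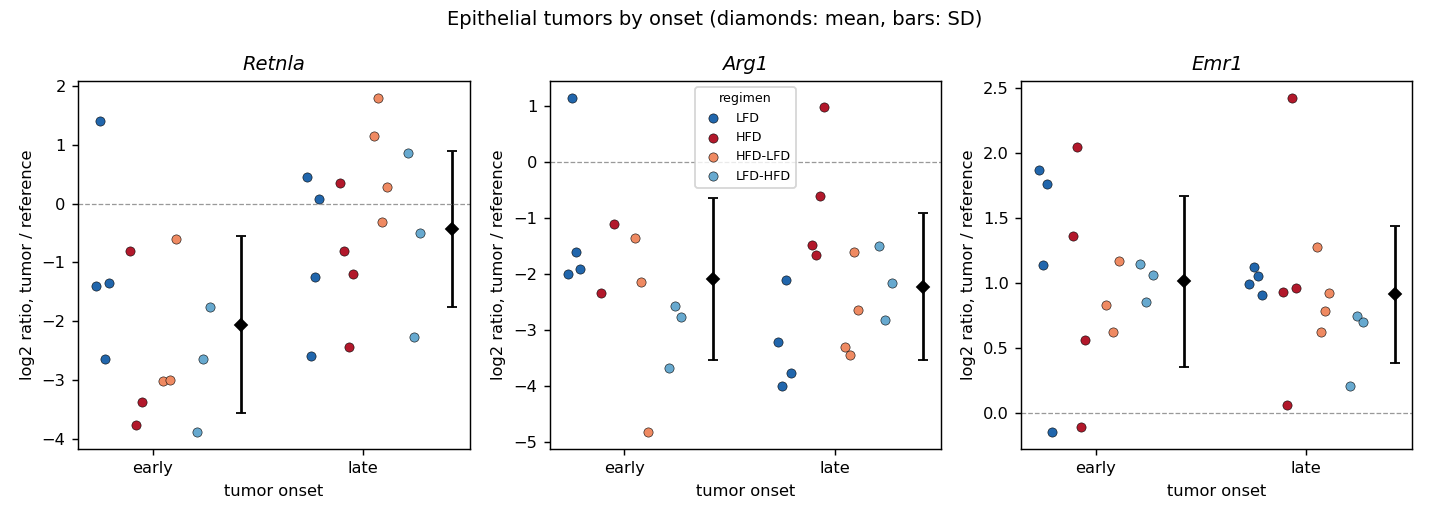
Log2 ratio of tumor over reference (y axis) of Retnla, Arg1 and Emr1 in early and late epithelial tumors (x axis), colored by regimen, with diamonds and bars for the mean and SD of all epithelial tumors of that onset. Retnla averaged -2.06 in early and -0.43 in late tumors, while the means of Arg1 and Emr1 were close.

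Histology gave the one called difference. Cd163, which clears haemoglobin bound to haptoglobin and marks resident and alternatively activated macrophages, was higher in spindle cell than in epithelial tumors by 1.95 (SE 0.26), with an interval of 1.43 to 2.47 and a limma adjusted p of 5.44e-07. Over 12 alternatives the difference ran from 0.80 to 1.99. Of all genes 20.2% were called in this comparison at an adjusted p under 0.05, 1655 higher and 2569 lower in spindle cell tumors. In the 10 genes 1 was called and 4 had an unadjusted p under 0.05, against 33.4% of all genes.

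Cd163 ran from 0.85 through 1.51 to 4.30 in the 12 spindle cell tumors and from -1.63 through -0.33 to 1.32 in the 29 epithelial ones. All 12 spindle cell tumors and 9 epithelial tumors exceeded the reference, and 3 epithelial tumors reached the lowest spindle cell value. The highest value was that of tumor M76R, and the next was 1.92. The probe was dim. It was well above background in the tumor channel of all 12 spindle cell arrays but of 17 of the 29 epithelial arrays, so the epithelial level is poorly measured and no fold is given. With normexp and loess in place of the scanner's processed signals the difference was 0.80 (SE 0.15) with an adjusted p of 0.000152, and in the authors' matrix it was 1.38 (SE 0.28) with an adjusted p of 0.000652. The normexp setting added an offset of 50 to both channels, while the mean processed signal of the Cd163 probe over both channels was 52.7. Whether the background correction, its offset or the loess step lowered the difference was not tested.

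On spindle cell arrays the tumor channel read higher and the reference channel lower. The mean Cd163 signal of the tumor channel was 6.38 ± 1.0 (SD, log2, n = 12) on spindle cell and 4.92 ± 1.21 (n = 29) on epithelial arrays, while the reference channel read 4.73 ± 0.34 and 5.22 ± 0.94. All spindle cell tumors were on slides 9 to 11, scanned on another scanner. Their processed signals came from another version of Agilent Feature Extraction, which subtracts background and normalizes dyes. Scan, software version and histology therefore cannot be told apart. Among late tumors alone the difference was 1.99 (SE 0.31), without 42L4B, 60L, M86R, M76R and M32L 1.84 (SE 0.24), and without tumors M76R and M32L 1.75 (SE 0.23). Each of these fits kept an adjusted p under the threshold, the highest being 0.00028.

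The other receptors lay on the same side without passing. Mrc1 was higher in spindle cell tumors by 0.99, with an interval of 0.18 to 1.80 and an adjusted p of 0.0754, and Msr1 by 0.86, with an interval of 0.19 to 1.54 and an adjusted p of 0.0604. Spindle cell tumors fell apart in Mrc1, which ran from -1.94 through 0.33 to 2.70. Of the 12, 5 were above the highest epithelial tumor, and the 5 lowest lay under the epithelial median of -0.74. Without M76R and M32L, both among the 5 highest, the difference in Mrc1 was 0.56 (adjusted p = 0.319). In Msr1 they ran from 0.79 through 2.41 to 4.62, around an epithelial median of 2.22. Msr1 passed in 3 alternatives, with 0.95 as a mean over its probes, 0.94 in the authors' matrix and 1.06 without 42L4B, 60L, M86R, M76R and M32L.

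The lineage genes depended on the probe. Emr1 differed by 0.37, with an interval of -0.05 to 0.80 and an adjusted p of 0.214, and its second probe gave -0.10 (SE 0.26). Cd68 differed by 0.26 (adjusted p = 0.314) with the brightest probe and by 0.86 (SE 0.25, adjusted p = 0.0131) with the second. Csf1r differed by 0.27 (adjusted p = 0.446) with the brightest and by 1.20 (SE 0.24, adjusted p = 0.000431) with the second brightest, and by 0.73 (adjusted p = 0.00306) as a mean over its 3 probes. Over epithelial tumors the second probe followed the first with r = 0.66 for Cd68 and 0.73 for Csf1r. Csf1 differed by 0.28, with an interval of -0.15 to 0.70.

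Retnla went the other way. It ran from -4.87 through -3.27 to 2.74 in spindle cell tumors and was lower than in epithelial tumors by 1.33, with an interval of -2.59 to -0.08 and an adjusted p of 0.124. A pair of spindle cell tumors stood apart, M76R at 2.74 and M32L at 1.27, and the other 10 lay between -4.87 and -1.44. The same pair had the mean of the 5 adipocyte markers at 3.61 and 2.06, whereas the other 10 spindle cell tumors lay between -5.63 and -3.53. Without this pair, a setting chosen after seeing the data, Retnla was lower in spindle cell tumors by 2.24 (SE 0.54, limma adjusted p = 0.00249). Without 42L4B, 60L and M86R as well it was lower by 2.56 (SE 0.54, adjusted p = 0.000508). The pair held the highest Retnla values of the spindle cell tumors, so leaving it out lowered their mean by construction. Neither fit therefore adds support to the difference over all tumors. Over the 28 epithelial tumors with both values, Retnla and the adipocyte mean had Pearson r = 0.37 and Spearman rho = 0.32. Their permutation p was 0.0539 and 0.102, both 0.504 or more after adjustment over the 10 genes. Without the 2 tumors farthest from the median of the adipocyte mean r was 0.28. The part of fat tissue in the Retnla values was not tested.

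**Figure D4:**
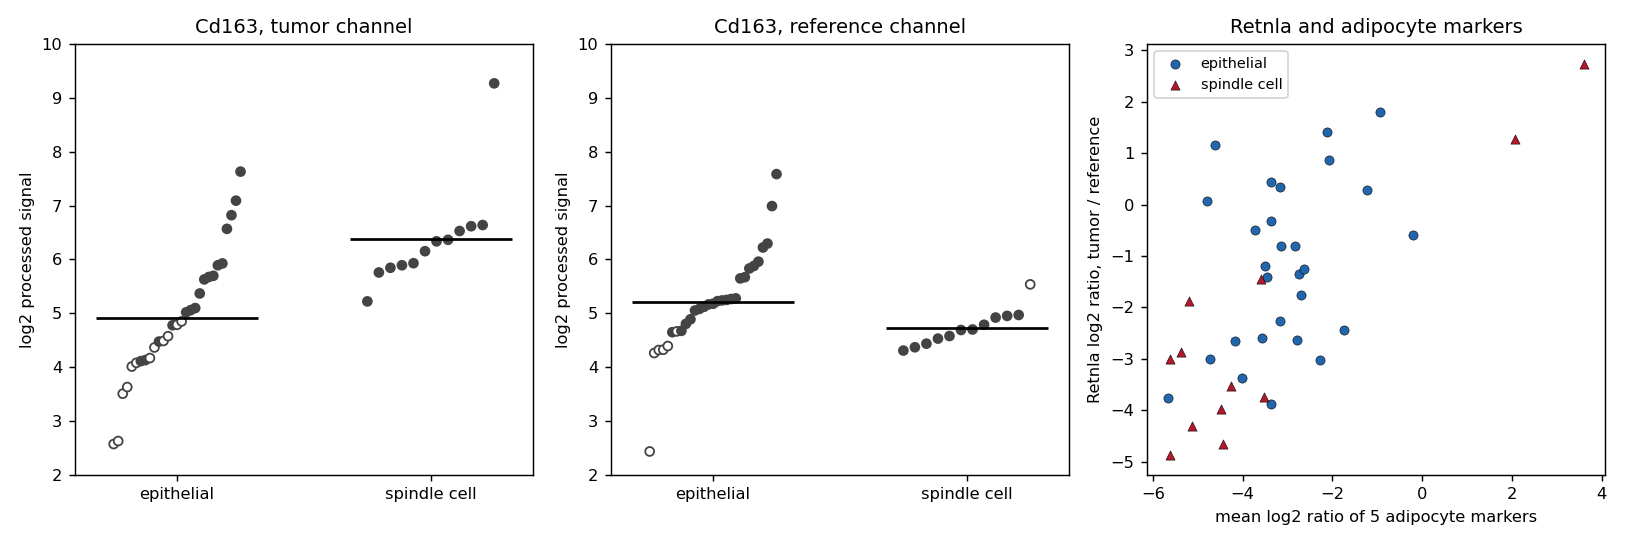
Left and middle, log2 processed signal of the Cd163 probe (y axis) in the tumor and the reference channel of each epithelial and spindle cell array (x axis), with filled points well above background, open points not, and bars at the means. Right, Retnla log2 ratio (y axis) against the mean log2 ratio of 5 adipocyte markers (x axis), where the spindle cell tumors M76R and M32L stand at 3.61 and 2.06 on the x axis.

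Arg1 averaged -1.30 ± 1.69 (SD, n = 12) in spindle cell tumors against -2.17 ± 1.35 (n = 27) in epithelial ones, a difference of 0.87 with an interval of -0.12 to 1.85. The 3 spindle cell tumors of LFD mice had Arg1 values of 0.13, 0.21 and 0.60, above the reference. Those of HFD mice were at -2.81, -1.87 and -0.57, those of HFD-LFD mice at -2.59, -0.85 and -0.56, and those of LFD-HFD mice at -4.27, -3.62 and 0.62. So the LFD values overlapped 1 other regimen's range. By limma's F test over the regimens in spindle cell tumors none of the 10 genes was called, with adjusted p of 0.978 or more. By that test 0% of all genes were called. At an unadjusted p under 0.05 0 of the 10 genes and 3.76% of all genes passed. Nos2 differed between histologies by 0.25, with an interval of -0.52 to 1.02.

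The effect of pubertal HFD was not found to differ between histologies for any of the 10 genes. In limma's interaction test 0 were called, as against 0.45% of all genes, and 2 had an unadjusted p under 0.05, as did 12.2% of all genes. These were Retnla, at -2.50 (SE 1.19, adjusted p = 0.385), and Cd163, at -1.003 (SE 0.49, adjusted p = 0.408). Without M76R and M32L, both from mice fed LFD in puberty, the Retnla value was -0.83 (SE 1.11) and the Cd163 value -0.62 (SE 0.45). All 5 adipocyte markers were nominally below 0 in the same interaction, with a median of -3.41 and 0 called, as were all 7 fibroblast markers, with a median of -1.91 and 0 called. Their part in these values was not tested.

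Around these genes, 2 of 23 other macrophage and myeloid genes were called higher in spindle cell tumors. They were C1qb, a chain of complement C1q, by 0.87 (SE 0.24) and Cd53, a leukocyte tetraspanin, by 0.94 (SE 0.34). Of 15 other genes of alternative activation 1 was called, the scavenger receptor Stab1, higher by 1.06 (SE 0.23). Of 11 of classical activation 2 were called higher, Ptgs2 by 2.06 (SE 0.69) and Socs3 by 0.43 (SE 0.16). Of the CSF1 and monocyte recruitment axis 3 of 11 were called higher, the monocyte chemokines Ccl7 by 1.42 (SE 0.34) and Ccl2 by 0.90 (SE 0.32) and the second ligand of CSF1R, Il34, by 0.83 (SE 0.25). None of these 4 lists had a gene called lower, and their medians were 0.21, -0.09, 0.24 and 0.38 against -0.07 over all genes. Of all genes 7.91% were called higher, near the shares of the first 2 of these lists.

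Some markers of other cells were called between the histologies as well. Of all 20913 genes 1655 were called higher and 2569 lower in spindle cell tumors, so single calls in short lists set no list apart. Of 7 fibroblast markers 4 were called higher in spindle cell tumors, with a list median of 0.92, and their mean ran from -3.27 through -1.15 to 0.55 in spindle cell and from -3.91 through -2.22 to -0.30 in epithelial tumors. Of 6 endothelial markers 2 were called higher, Pecam1 and Kdr. Of 6 T cell markers 1 was called lower, Cd8a, and the mean ran from -1.96 through -0.92 to 0.83 in spindle cell and from -1.70 through -0.14 to 2.64 in epithelial tumors. Of 7 neutrophil markers 2 were called lower, Csf3r by 0.95 (SE 0.12) and Ngp by 0.71 (SE 0.24), with a list median of 0.20, and of 4 mast cell markers 1 was called higher, Tpsb2 by 0.70 (SE 0.24). Of 4 dendritic cell, 3 B cell and 5 adipocyte markers 0 were called. Of 6 epithelial markers 0 were called and all 6 were nominally lower, with a median of -0.44. Their part in the Cd163 difference was not tested.

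The 10 genes did not vary as one across epithelial tumors. Of 45 pairs 15 had a Pearson correlation with a permutation p under 0.05 after Benjamini-Hochberg adjustment over the pairs, all 15 positive, and 8 also passed by Spearman's rho. The strongest joined the receptor and its ligand. Csf1r and Csf1 had r = 0.81 and rho = 0.77 over 28 tumors, with permutation p of 1e-05, the smallest that the resamples can give, and 2e-05, adjusted 0.00045 and 0.0009. Without the 2 farthest tumors r was 0.76, and with slide means subtracted it was 0.90. Both genes were read from their brightest probe alone. The farthest tumors were those farthest from the median of 1 gene of the pair, the one listed first at the start of these Results. Csf1r and Cd68 had r = 0.75 (rho = 0.65, permutation p 2e-05 and 0.0003, adjusted 0.00045 and 0.00337), with 0.62 without the 2 farthest tumors and 0.74 with slide means subtracted. Emr1 and Csf1 had r = 0.69 (rho = 0.73, permutation p 5e-05 and 4e-05, adjusted 0.00075 and 0.0009), with 0.62 and 0.70 in the same checks.

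Arg1 stood outside that group. Its r with Emr1 was 0.04, with Csf1r 0.11 and with Csf1 -0.01, none of which passed. Arg1 went with Nos2 instead, the other enzyme that uses arginine, at r = 0.55 and rho = 0.46 over 27 tumors, with permutation p of 0.00228 and 0.0185, adjusted 0.0147 and 0.0756. It was 0.47 without the 2 farthest tumors and 0.44 with slide means subtracted, where the adjusted permutation p was 0.21. Mrc1 and Cd163 had r = 0.54 but rho = 0.35, with permutation p of 0.00314 and 0.0633, adjusted 0.0159 and 0.204. Their r was 0.63 without the 2 farthest tumors and 0.74 with slide means subtracted. Mrc1 and Arg1 had r = 0.48 with rho = 0.21 (permutation p 0.011 and 0.289, adjusted 0.0362 and 0.521). Their r fell to 0.19 without the 2 farthest tumors, so as measured that relation rests on them. With slide means subtracted r was 0.58, where the adjusted permutation p was 0.0907. Cd163 and Arg1 did not pass as measured (r = 0.33, adjusted permutation p 0.214) but did with slide means subtracted (r = 0.59, adjusted 0.0364). Retnla passed with no other gene by Pearson's r, where its lowest value was -0.37 with Msr1 (permutation p 0.0498, adjusted 0.132). By rank it went with Mrc1, at rho = 0.56 (permutation p 0.00235, adjusted 0.0211) but r = 0.32 (permutation p 0.0995, adjusted 0.214).

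**Figure D5:**
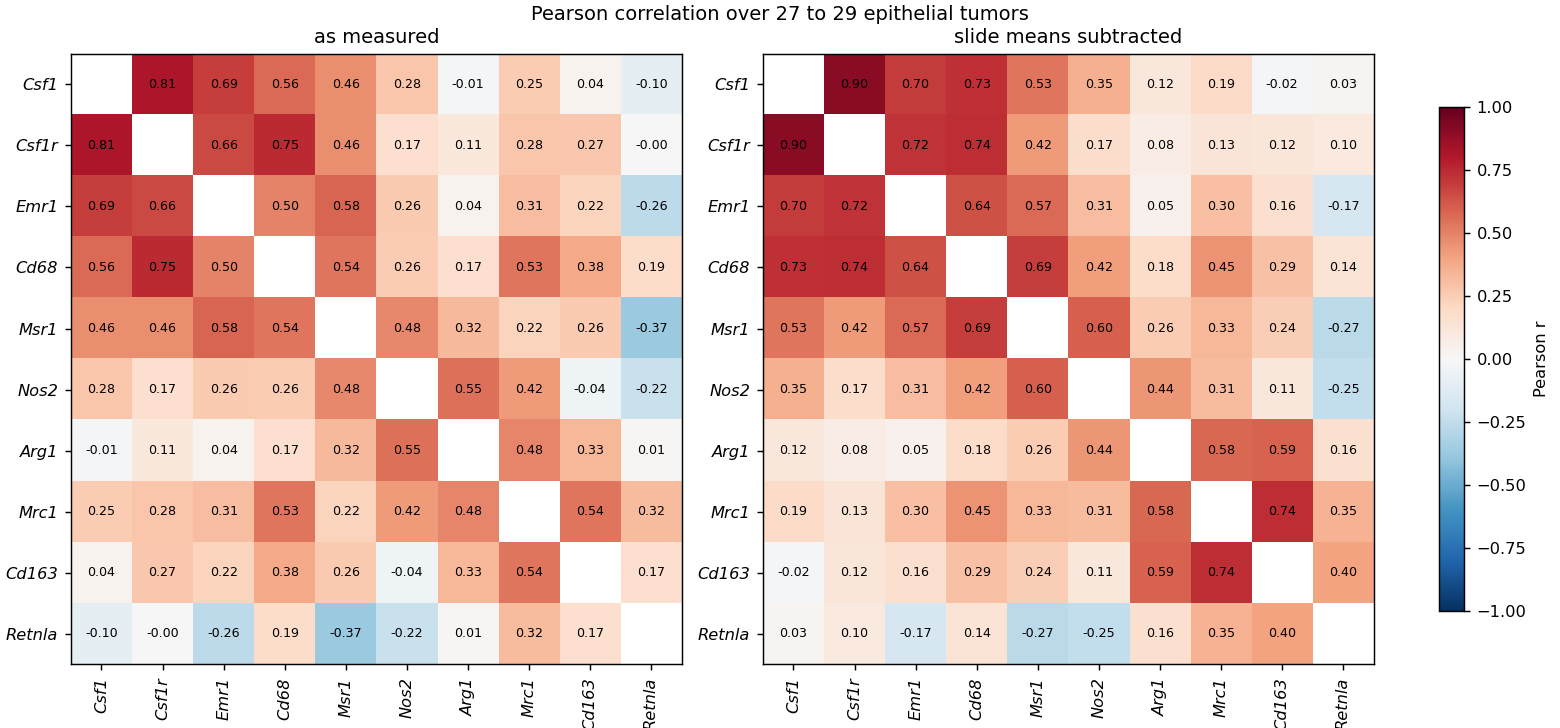
Pearson r between each pair of the 10 genes (both axes) over 27 to 29 epithelial tumors, as measured and with slide means subtracted, on a color scale from -1 to 1. Csf1, Csf1r, Emr1, Cd68 and Msr1 form a block with r of 0.46 or more as measured, while Emr1 and Arg1 stand at 0.04. By Spearman's rho Cd68 did not pass with Emr1 (adjusted permutation p 0.0756) or Csf1 (0.114), nor Msr1 with Csf1 (0.159) or Csf1r (0.222). The other pairs of the block passed by both measures. Without the 2 farthest tumors r was 0.23 for Emr1 and Cd68 and 0.37 for Cd68 and Csf1.

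The genes most like Emr1 and Arg1 were sought among 16571 and 16567 named genes with a probe well above background in at least 15 of the epithelial tumors. For Emr1 they were Ms4a6d (r = 0.86), Ms4a7 (0.78), Slc11a1 (0.78), Ptpro (0.78) and Plek (0.78) over 29 tumors. For Arg1 they were Ppyr1 (0.74), Eif4ebp1 (0.70), Tmem43 (0.69), Gm5476 (0.69) and Krt6a (0.68) over 27 tumors. Ms4a6d and Ms4a7 are membrane proteins of myeloid cells, Slc11a1 is a metal transporter of the phagosome and Plek is a signalling protein of platelets and leukocytes. Eif4ebp1 encodes an inhibitor of cap-dependent translation and Krt6a a keratin of epithelial cells. These are the highest of many correlations and are given as a description.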

How the data were processed

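The tumors were compared by the sample labels. Per the labels and file headers, the authors deposited for each array the spot intensity in both channels, as mean signals and as processed signals that Agilent Feature Extraction (8.5.1.1 in the labels, 11.0.1.1 and 10.5.1.1 in the headers) had background-subtracted and dye-normalized. They also deposited a matrix of log2 ratios, lowess normalized with missing values imputed, whose array medians ran from -0.04 to 0.05. Flag columns, other than these values, marked outlier, saturated and well above background spots.

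Here log2 of processed tumor over reference signal was taken. Spots flagged as outliers were left missing, spots of a probe were averaged, and each gene was read from its brightest probe. Probes needed a processed signal above 10 in both channels on 80% of arrays. Of the 20913 genes 16877 had names in the GRCm38.p6 gene table. Differences were tested with limma 3.58.1 (lmFit, eBayes) in R 4.3.3, with Benjamini-Hochberg adjustment over all genes, at 0.10 or, for histology, 0.05. The study used SAM, whose package was not in the software used here, at the same thresholds. Correlations used 100000 permutations in Python 3.11.15.

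The 10 genes, the lists and the tests were chosen with earlier results of these data known. Named genes were the 10, list genes as counts with up to 4 examples, and the 5 genes most like Emr1 and Arg1. The fits were tested on simulated data. Alternatives changed the background correction, centring, filter, probe, outliers, slide, session, threshold, covariates or tumors, or used the authors' matrix. In 3 of 41 tumors (40R4A, 57R and 65R) a matrix column fitted another tumor's array best, with r of 0.97 against 0.76 to 0.84 for its own, and the array files' labels were kept. Where tumors came from separate mice is not stated for each, so p-values measure the spread between these tumors. The number of arrays limits the precision.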

Additional observations from a re-analysis of the deposited data

Results flagged for a closer look

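Within the 4 epithelial regimen groups, 40 sets of values (10 genes by 4 regimens) were searched for a tumor far from the rest, and 6 had one, where chance alone gives about 1 in 20. In the HFD group tumor 62L had the highest Cd68, at 2.06 against 1.20 for the next tumor, and the highest Csf1r, at 2.37 against 1.098. In the HFD-LFD group a late tumor had the highest Cd68, at 2.26 against 0.92. In the LFD group tumor 17R had the highest Mrc1, at 1.28 against -0.55, and the highest Arg1, at 1.15 against -1.61. In the LFD-HFD group tumor 82L had the lowest Cd163, at -1.61 against -0.50. Tumor 62L also had Emr1 at 2.42, Msr1 at 3.99 and Nos2 at 3.58, and tumor 17R had Retnla at 1.403, each the highest of its regimen group. Groups of 3 spindle cell tumors were not searched.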

How the results depend on the processing

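Of the 10 genes the number called in spindle cell against epithelial tumors was 1, and Cd163 was called in each of the 12 other fits of that comparison. The number was 3 with the mean over probes, 2 in the authors' matrix, 3 at the other threshold (0.10), 3 without 42L4B, 60L, M86R, M76R and M32L, and 2 without M76R and M32L, a setting chosen after seeing the data. In the other 10 comparisons 0 of the 10 genes were called under each alternative run, including 0 when each spindle cell tumor was left out in turn. Of 980 differences of single genes recomputed, 924 kept their sign and their side of the threshold, 48 changed sign without a call in either fit and 8 were newly called, all for histology. Pairs of genes that correlated numbered 15, and 13 with slide means subtracted (11 of them shared), 14 with normexp and loess and 15 without 42L4B and 60L. Counts over all genes moved more. Against 99 for the 4 regimens the alternatives gave 0 to 197, against 41 for the regimens with HFD 0 to 192, against 292 for HFD-LFD 6 to 803, against 0 for LFD-HFD 0 to 2, against 2 for pubertal HFD 0 to 79, against 46 for onset 0 to 113, against 4224 for histology 2357 to 7909, against 0 for regimens in spindle cell tumors 0 to 18, and against 94 for the pubertal effect by histology 0 to 2368. The counts for the 4 regimens and for onset both fell to 0 when slide entered as a random block. The cause was not tested. Dim signal limits Cd163, and 6 to 8 tumors per regimen limit the diet comparisons, where the 95% interval of Retnla in HFD-LFD against LFD ran from 0.421 to 4.05 of the LFD level. No paired analysis was possible because epithelial and spindle cell tumors shared 1 label number, as did early and late epithelial tumors, regimens shared 0, and a pairing needs at least 2.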
